A study of Mus musculus with 22 samples.

Results

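The transcripts followed here are those of 10 genes that the transcription factor p53 is known to induce: Cdkn1a, Ccng1, Gadd45a, Bax, Bbc3, Fas, Trp53inp1, Mdm2, Sesn1 and Gdf15. They were chosen by name, as textbook p53 target genes, with earlier results of these data known. The gene lists below were chosen likewise, so their counts beside all detected genes describe these data and test nothing. The 10 genes were found on the array through the RefSeq accession of each probe. All 10 were on the array, by 12 probes, among 20018 genes with a symbol and 55681 probes in all. Cdkn1a and Trp53inp1 had 2 probes each, and every gene is given by its brightest probe unless stated.

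The cells were FE1, a line of epithelial origin derived from the lung of a MutaMouse, a mouse that carries a bacterial lacZ transgene. They were grown with epidermal growth factor and exposed for 24 h to the multi-walled carbon nanotube Mitsui7: none for 5 control arrays (0 µg/ml), 12.5 µg/ml for 6 arrays called the low dose, 25 µg/ml for 5 called the medium dose and 100 µg/ml for 6 called the high dose. All groups are the same cell line, so they stand for 1 cell stock and not for different animals. On each of the 22 arrays sample RNA was labelled with Cy5 and hybridised beside pooled RNA of mouse cell lines, labelled with Cy3, and a level is the log2 ratio of sample to pool. A level of 0 means equal signal in sample and pool, so levels of different genes cannot be ranked against each other. A gene is called here when it differed from control with an adjusted p of at most 0.05 and by at least 1.5-fold and its probe was detected on 4 or more arrays of the dose or of the control.

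The protein p53 accumulates when DNA is damaged or the cell is stressed, binds a short element near its target genes and raises their transcription. Its targets halt the cell cycle, set off apoptosis, blunt oxidative stress or, as with Mdm2, feed back to degrade p53 itself. Several of them also answer to other factors: Gadd45a, Gdf15 and Bbc3 are known to be induced as well by ATF4 or CHOP, the transcription factors of the integrated stress response, and Sesn1 and its relative Sesn3 are also targets of FoxO factors.

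Promoter windows from RefSeq (build GRCm38.p6, 250 bases before to 50 after each annotated start) were available for 9 of the 10 genes, 14 windows in all. The search was for the decamer consensus of the p53 half-site, a part of the full response element. The decamer equals its own reverse complement and so was read once for both strands. It matched in 6 of the 14 windows and 6 of the 9 genes. It matched in 8.36% of all 32851 windows and in 9.55% of all 27025 genes with a window. The stretches around the matches are shown because they let a reader set each gene's change beside the half-site it carries. The Cdkn1a stretch holds 2 half-sites and each other stretch 1. Capitals mark the decamer, and each stretch runs 5′ to 3′ in the direction of the gene.
Cdkn1a, chr17:29090881-29090962, plus strand: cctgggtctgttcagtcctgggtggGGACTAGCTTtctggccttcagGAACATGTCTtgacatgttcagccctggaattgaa
Mdm2, chr10:117710910-117710969, minus strand: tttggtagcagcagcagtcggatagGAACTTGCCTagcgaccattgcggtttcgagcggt
Ccng1, chr11:40755437-40755496, minus strand: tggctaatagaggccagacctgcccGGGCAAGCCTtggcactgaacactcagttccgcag
Bax, chr7:45467065-45467124, minus strand: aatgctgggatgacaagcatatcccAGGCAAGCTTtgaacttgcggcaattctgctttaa
Sesn1, chr10:41887241-41887300, plus strand: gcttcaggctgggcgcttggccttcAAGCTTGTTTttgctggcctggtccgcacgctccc
Gadd45a, chr6:67037413-67037472, minus strand: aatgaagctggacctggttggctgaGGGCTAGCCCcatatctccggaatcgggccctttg
The decamers began 73 and 51 bases before a Cdkn1a start, 186 before that of Mdm2, 185 before that of Ccng1, 201 before that of Bax, 173 before a Sesn1 start and 40 before that of Gadd45a. The Sesn1 stretch lies within the annotated Sesn1 gene, the Gadd45a stretch overlaps the gene E230016M11Rik, and the other 4 overlap no annotated gene. No decamer matched in the windows of Bbc3, Gdf15 and Fas, nor at the other starts of Cdkn1a and Sesn1. The composite element of CHOP, read on both strands as TGATGNAA, was in none of the 14 windows and in 3.97% of all windows. A match is a string of letters and not a measured binding site, and known p53 elements of several of these genes lie outside such windows.

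The arrays lay on 5 slides, 8 arrays on 1 of them with 2 of each group, and the slide was a term of every comparison. Slide 5 held only low dose replicate 5 and high dose replicate 5. With no control on that slide, they add little to a change against control. Detected probes ranged from 23688 to 39138 per array. After slides were centred, the whole profile of 13 of 20 arrays was nearest to their own group. Of the other 7, low dose replicate 1 was nearest to the medium dose and medium dose replicate 2 to the low dose, and these 2 alone correlated below 0 with the rest of their own group (-0.33 and -0.29). Results that rest on these 2 arrays are given with and without them. Of 11 epithelial and lung markers, 3 were detected on all 22 arrays, and Cdh1 (E-cadherin) and Nkx2-1, a lung lineage factor, on none. By the rule used for calling, 6 of the 11 were detected for the low dose and 7 for the medium and the high dose. All 6 fibroblast and mesenchymal markers were detected on all arrays. Markers of both kinds were thus detected, and epithelial identity is taken from the label of the line. Because whole cultures were measured, fewer cells of a type and less RNA per cell cannot be told apart. The methods speak of several separate experiments and the labels of several exposures per dose on an experiment day, without saying which array came from which, so arrays of a group may share an experiment. The p-values thus measure the spread between these arrays, and the number of arrays limits the precision.

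**Figure D1:**
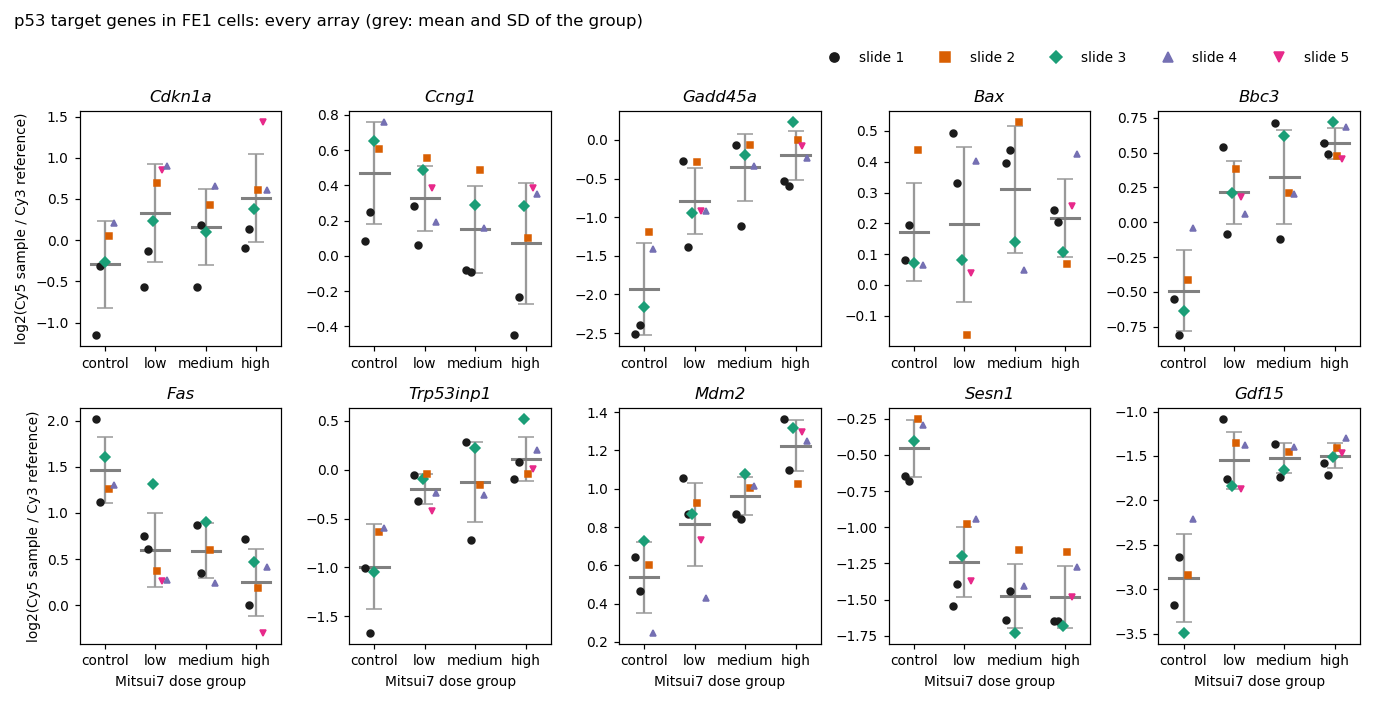
Level of each of the 10 genes on all 22 arrays, as the log2 ratio of Cy5 sample to Cy3 reference pool, by dose group; symbols give the slide, the grey bar and whiskers the mean and SD of the group. Gdf15 of every exposed array lies above every control array and Sesn1 of every exposed array below every control array, while the groups of Bax overlap throughout.

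Among the genes that act on the cell cycle, Gadd45a rose most, Cdkn1a rose at the high dose and Ccng1 was not called. Gadd45a codes for a small stress protein that binds PCNA and inhibits the Cdk1 kinase. Its log2 level was -2.51, -2.39, -2.17, -1.20 and -1.41 in control replicates 1 to 5. It ran from -1.38 through a median of -0.92 to -0.27 at the low dose, was -0.07, -1.11, -0.20, -0.06 and -0.34 in medium dose replicates 1 to 5, and ran from -0.59 through -0.15 to 0.24 at the high dose. Every medium and high dose array lay above every control array, and 5 of the 6 low dose arrays did. The log2 change against control was 1.15 ± 0.21 (SE) at the low dose, 1.58 ± 0.22 at the medium dose and 1.74 ± 0.21 at the high dose, or 2.21-, 2.99- and 3.33-fold (adjusted p = 0.00321, 0.000104 and 1.51e-05). Without slide 1 the low dose change of Gadd45a was 0.85 (adjusted p = 0.0508).

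Cdkn1a codes for p21, the cyclin-dependent kinase inhibitor that carries out the p53 arrest. Its level in control replicates 1 to 5 was -1.16, -0.32, -0.26, 0.06 and 0.21. At the low dose it ran from -0.57 through 0.46 to 0.90. In medium dose replicates 1 to 5 it was -0.57, 0.18, 0.10, 0.43 and 0.65, and at the high dose it ran from -0.10 through 0.49 to 1.44. The groups overlapped at each dose, and the lowest array of each group was on slide 1. With slide in the model the change was 0.48 ± 0.16 at the low dose (adjusted p = 0.11), 0.45 ± 0.16 at the medium dose (adjusted p = 0.12) and 0.66 ± 0.16 at the high dose, or 1.58-fold (adjusted p = 0.00822). Only the high dose passed, and narrowly: without control replicate 1 the change was 0.54, under 1.5-fold, without slide 3 it was 0.67 (adjusted p = 0.0532), and without the slide term 0.81 (adjusted p = 0.161). The low dose passed without control replicate 2, at 0.59 (adjusted p = 0.0427). The other Cdkn1a probe gave 0.31, 0.43 and 0.41 from low to high dose and passed at none (adjusted p = 0.442, 0.197 and 0.178).

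Ccng1 codes for cyclin G1, a p53 target that recruits the phosphatase PP2A to Mdm2. Its level was 0.08, 0.25, 0.65, 0.60 and 0.76 in control replicates 1 to 5 and ran from 0.06 through 0.33 to 0.55 at the low dose. It was -0.08, -0.09, 0.29, 0.48 and 0.16 at the medium dose and ran from -0.45 through 0.19 to 0.38 at the high dose. The groups overlapped at every dose. Differences from control were -0.18 ± 0.10 (adjusted p = 0.47), -0.32 ± 0.10 (adjusted p = 0.0847) and -0.43 ± 0.10 (adjusted p = 0.00767). The high dose value passed the p threshold but was 1.35-fold, under the fold threshold, and its sign was opposite to that of Gadd45a and Cdkn1a.

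Of the 3 apoptosis genes, Bbc3 rose at each dose, Fas fell at each dose and Bax was not called. Bbc3 codes for PUMA, a BH3-only protein that frees Bax and Bak to open the mitochondrion. Its control level was -0.55, -0.81, -0.64, -0.41 and -0.04. It ran from -0.09 through 0.20 to 0.54 at the low dose, was 0.71, -0.12, 0.62, 0.21 and 0.20 at the medium dose, and ran from 0.46 through 0.53 to 0.72 at the high dose. Every high dose array lay above every control array, 5 of 6 low dose arrays did, and 4 of 5 medium dose arrays did, the exception being replicate 2. The change was 0.72 ± 0.15, 0.82 ± 0.16 and 1.07 ± 0.15, or 1.65-, 1.76- and 2.10-fold (adjusted p = 0.00924, 0.00258 and 8.13e-05). The low dose call of Bbc3 was lost without slide 1 (0.60, adjusted p = 0.101), slide 2 (0.71, adjusted p = 0.0545) or slide 3 (0.68, adjusted p = 0.0684).

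Fas codes for a death receptor at the cell surface. Its level was 2.02, 1.12, 1.61, 1.26 and 1.31 in control replicates 1 to 5, each above the reference pool. It ran from 0.26 through 0.49 to 1.31 at the low dose, was 0.87, 0.35, 0.90, 0.59 and 0.24 at the medium dose, and ran from -0.30 through 0.30 to 0.71 at the high dose. All medium and high dose arrays lay below every control array. At the low dose 5 of 6 did, and replicate 3, on the same slide as a high control, reached into the control range. Fas fell by 0.78 ± 0.16, 0.87 ± 0.17 and 1.13 ± 0.16 on the log2 scale, or 1.72-, 1.83- and 2.18-fold (adjusted p = 0.00836, 0.00252 and 9.57e-05). The low dose change was -0.71 without slide 1 (adjusted p = 0.0511) and -0.76 without slide 2 (adjusted p = 0.0555).

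Bax codes for the pore-forming protein that PUMA sets free. Its level was 0.08, 0.19, 0.07, 0.44 and 0.07 in controls, ran from -0.16 through 0.20 to 0.49 at the low dose and from 0.07 through 0.22 to 0.43 at the high dose, and was 0.40, 0.44, 0.14, 0.53 and 0.05 at the medium dose. All groups overlapped. The differences were 0.04, 0.14 and 0.06, with 95% intervals from -0.21 to 0.29, from -0.12 to 0.40 and from -0.19 to 0.31 (adjusted p = 0.936, 0.705 and 0.901). These intervals hold no change of 1.5-fold in either direction.

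Trp53inp1, which codes for a nuclear and autophagic stress protein that promotes p53-dependent cell death, rose at each dose. Its level was -1.002, -1.67, -1.05, -0.64 and -0.59 in controls and ran from -0.43 through -0.17 to -0.05 at the low dose. It was 0.29, -0.72, 0.22, -0.16 and -0.26 at the medium dose and ran from -0.10 through 0.04 to 0.52 at the high dose. Low and high dose arrays all lay above the controls, and of the medium dose only replicate 2 fell among them. The change was 0.83 ± 0.17, 0.86 ± 0.18 and 1.13 ± 0.17, or 1.77-, 1.82- and 2.19-fold (adjusted p = 0.00849, 0.00468 and 0.000178). The calls at the low and medium dose were lost without slide 1 (0.62 and 0.69, adjusted p = 0.0955 and 0.0553) and without slide 3 (0.79 and 0.76, adjusted p = 0.0636 and 0.0602). The dimmer Trp53inp1 probe, well above background on 19 of 22 arrays, gave 0.29, 0.48 and 0.47 (adjusted p = 0.382, 0.059 and 0.0453), under 1.5-fold at each dose.

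Mdm2, the ubiquitin ligase that marks p53 for destruction, closes the feedback loop and was called at the high dose. Its level was 0.64, 0.47, 0.73, 0.60 and 0.25 in controls and ran from 0.43 through 0.87 to 1.06 at the low dose. It was 0.87, 0.84, 1.08, 1.00 and 1.01 at the medium dose and ran from 1.03 through 1.27 to 1.36 at the high dose. All medium and high dose arrays, and 5 of 6 low dose arrays, lay above every control array. The differences were 0.28 ± 0.10 (adjusted p = 0.179), 0.42 ± 0.10 (adjusted p = 0.0174) and 0.69 ± 0.10 (adjusted p = 0.000117), or 1.21-, 1.34- and 1.61-fold. The medium dose thus passed the p threshold and not the fold threshold, and the high dose call was lost when arrays were centred on their median in place of loess (0.64, adjusted p = 0.426).

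Sesn1, which codes for sestrin 1, a stress protein that restrains mTORC1 and oxidative damage, fell at each dose. Its level was -0.64, -0.68, -0.40, -0.25 and -0.30 in controls and ran from -1.55 through -1.29 to -0.94 at the low dose. It was -1.64, -1.44, -1.73, -1.16 and -1.40 at the medium dose and ran from -1.68 through -1.56 to -1.17 at the high dose. No exposed array reached the control range. Sesn1 fell by 0.77 ± 0.08, 1.02 ± 0.09 and 1.01 ± 0.08 on the log2 scale, or 1.71-, 2.03- and 2.02-fold (adjusted p = 1.16e-05, 3.32e-07 and 9.78e-08), the smallest adjusted p of the 10 genes at each dose. The p53 decamer printed above for Sesn1 stands before 1 of its 2 annotated starts.

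Gdf15 codes for a secreted cytokine of the TGF-beta family that cells release under many stresses. Its level was -3.18, -2.64, -3.49, -2.84 and -2.21 in controls, far below the reference pool, and was not well above background on control replicate 5. It ran from -1.87 through -1.57 to -1.08 at the low dose, was -1.37, -1.74, -1.65, -1.45 and -1.40 at the medium dose, and ran from -1.72 through -1.49 to -1.30 at the high dose. No exposed array reached the control range, and the 3 exposed groups covered about the same range. Gdf15 rose by 1.35 ± 0.15, 1.35 ± 0.16 and 1.40 ± 0.15, or 2.55-, 2.55- and 2.65-fold (adjusted p = 1.71e-05, 1.31e-05 and 3.01e-06).

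**Figure D2:**
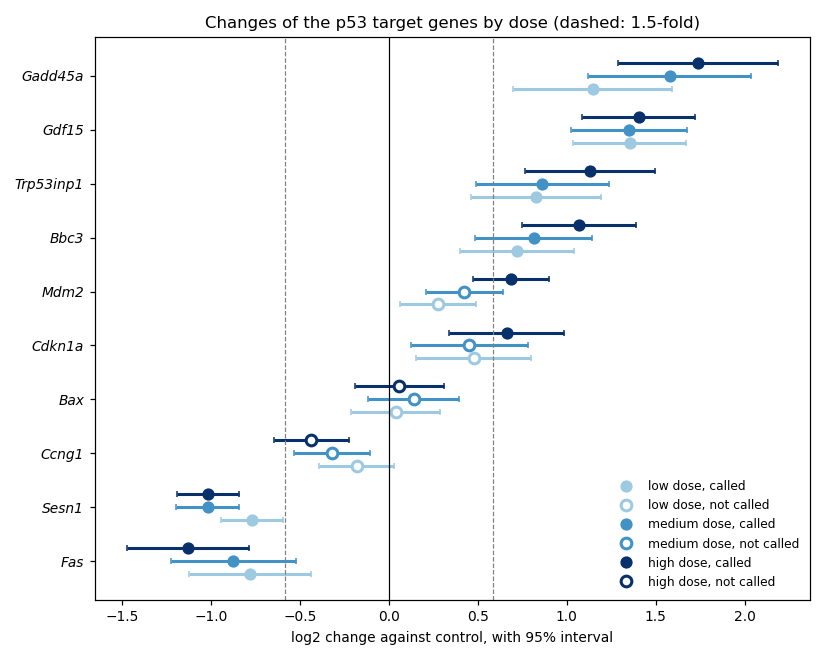
Log2 change of each gene against control for the 3 doses, with its 95% interval from the model over all arrays; filled points are called, open points are not, and dashed lines mark 1.5-fold. Gadd45a at the high dose reaches 1.74 and Fas -1.13, and the intervals of Bax stay within the dashed lines.

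Counted together, 6 of the 10 genes were called at the low dose, where 5.18% of 13642 detected genes were. Of these, Gadd45a, Gdf15, Trp53inp1 and Bbc3 were higher and Sesn1 and Fas lower, beside 2.17% of detected genes called higher and 3.01% called lower. The groups did not overlap for 2 genes that were higher, beside 2.24% of detected genes, and for 1 that was lower, beside 2.58%. The median change of the 10 genes was 0.38, against 0.00054 over all detected genes. With low dose replicate 1 and medium dose replicate 2 left out together, the same 6 genes were called. The low dose count was the least firm: it was 2 without slide 1 and 2 when arrays were centred on their median in place of loess, Gdf15 and Sesn1 in both cases.

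At the medium dose the same 6 genes were called in the same directions, where 8.88% of 13412 detected genes were called, 4.24% higher and 4.65% lower. The groups did not overlap for 3 genes that were higher (5.06% of detected genes) and 2 that were lower (4.88%). The median change was 0.44, against 0.0013 over all detected genes. Median centring in place of loess left 3 calls, Gdf15, Sesn1 and Gadd45a, and the same 6 genes were called without the 2 arrays that stood apart.

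At the high dose 8 of the 10 genes were called, Cdkn1a and Mdm2 joining the 6, where 11.8% of 14027 detected genes were called. Higher were 6 of the 10, beside 5.45% of detected genes, and lower 2, beside 6.4%. The groups did not overlap for 5 genes that were higher (5.67%) and 2 that were lower (5.74%). The median change was 0.68, against 0.0091 over all detected genes. The 3 comparisons share the same 5 control arrays, so they are not separate evidence.

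Compared directly, no gene of the 10 was called between doses by limma. Between the medium and the low dose none of 13876 detected genes was called (0% of them, with 1182 at an unadjusted p under 0.05), and 1 of the 10 had an unadjusted p under 0.05, Sesn1 at -0.25 (95% interval from -0.42 to -0.07, adjusted p = 0.869). Between the high and the low dose 0.435% of 14256 detected genes were called (with 2088 at an unadjusted p under 0.05), and 6 of the 10 had an unadjusted p under 0.05. Mdm2 came nearest, 0.41 ± 0.10 higher at the high dose, with 5 of 6 high dose arrays above every low dose array (adjusted p = 0.0767). Gadd45a was 0.59 higher (95% interval from 0.17 to 1.01, adjusted p = 0.341), and it was called without low dose replicate 1, the only one of the 10 genes to be so. Gdf15 differed by 0.05 (95% interval from -0.24 to 0.35, adjusted p = 0.96). Between the high and the medium dose none of 14107 detected genes was called (0%, with 768 at an unadjusted p under 0.05), and 1 of the 10 had an unadjusted p under 0.05, Mdm2 at 0.26 (adjusted p = 0.999).

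Within slides, where a dose and its control shared a slide, the called directions were the same throughout. On each of slides 1 to 4, Cdkn1a, Mdm2, Bbc3, Trp53inp1, Gdf15 and Gadd45a were higher than the control of the same slide at all 3 doses, and Sesn1 and Fas lower. Sesn1 lay between -0.80 and -0.65 at the low dose and between -1.28 and -0.92 at the high dose. Gadd45a spread more widely, between 1.18 and 2.41 at the high dose. Bbc3 at the low dose ran from 0.10 on slide 4 to 0.91 on slide 1. Ccng1 was lower on all 4 slides at the medium and high dose and on 3 at the low dose. Bax was higher on 3 of 4 slides and lower on 1 at each dose.

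**Figure D3:**
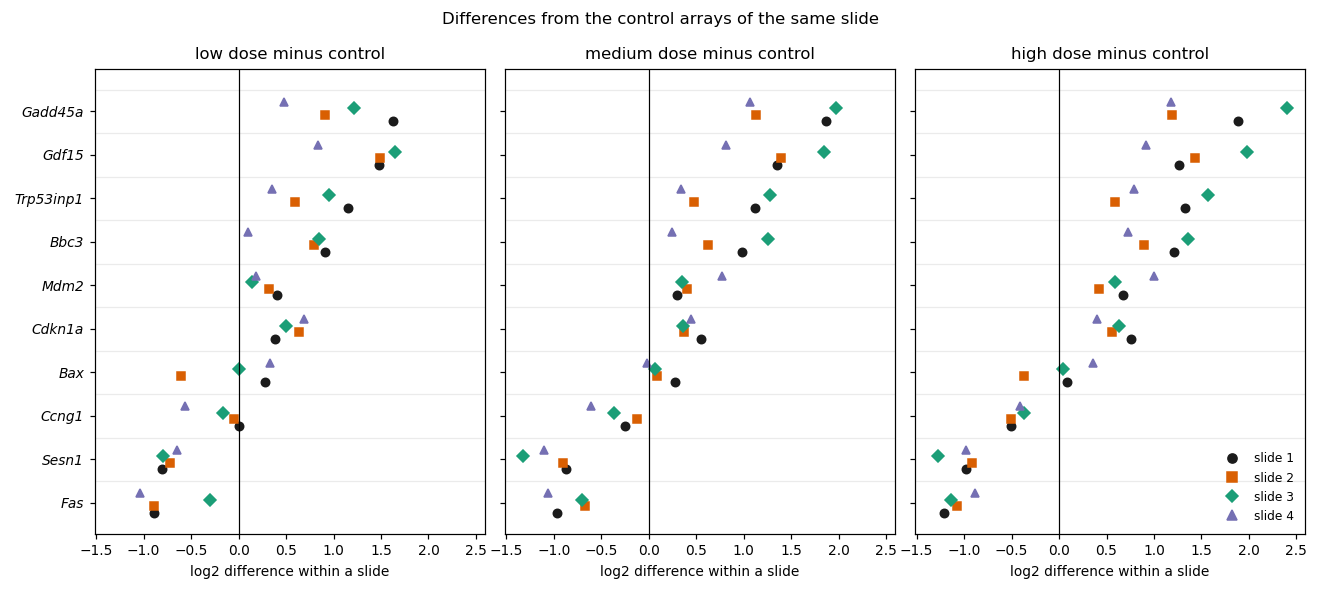
Log2 difference of each gene between the exposed and control arrays of the same slide, for slides 1 to 4 and the 3 doses; on slide 1 each point is a difference of means of 2 arrays, on the others of single arrays. Sesn1 and Fas lie left of 0 on each slide and Gadd45a, Gdf15, Trp53inp1, Bbc3, Mdm2 and Cdkn1a right of 0.

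Single arrays stood at an extreme in several of the genes at once. In medium dose replicate 2, 6 of the 10 genes were at the lowest level of their group: Mdm2, Ccng1, Bbc3, Trp53inp1, Gdf15 and Gadd45a. In low dose replicate 1, 5 were at the highest level of their group: Mdm2, Bax, Bbc3, Gdf15 and Gadd45a. Control replicate 5 was likewise highest of its group in 5: Cdkn1a, Ccng1, Bbc3, Trp53inp1 and Gdf15. Its whole profile correlated at 0.48 with the other controls. Low dose replicate 1 and medium dose replicate 2 are the 2 arrays whose whole profile correlated below 0 with the rest of their own group. Without both, Gadd45a changed by 0.96 at the low dose and 1.69 at the medium dose (adjusted p = 0.0044 and 1.22e-05), and Bbc3 by 0.63 and 0.91 (adjusted p = 0.02 and 0.00077).

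Transcripts of p53 itself and of 16 of its regulators were not called by limma at the low or high dose (0 of 17, with 4 and 5 at an unadjusted p under 0.05). Of all detected genes 5.18% and 11.8% were called at these doses. An unadjusted p under 0.05 was found for 3743 of all 13642 detected genes at the low dose and for 5055 of 14027 at the high dose. Trp53, the gene of p53, differed by 0.33 ± 0.28, 0.49 ± 0.28 and 0.35 ± 0.28 from low to high dose (adjusted p = 0.687, 0.461 and 0.634), and p53 protein was not measured. Mdm4, the partner of Mdm2, differed by -0.27, -0.02 and 0.36 (adjusted p = 0.689, 0.988 and 0.493). At the medium dose 1 of the 17 was called (5.88%, beside 8.88% of all detected genes). It was Hipk2, a kinase that phosphorylates p53, at 0.76 (adjusted p = 0.00787), named after its values were seen. Hipk2 was also 0.60 higher at the low dose (adjusted p = 0.0505) and 0.48 higher at the high dose (adjusted p = 0.0903), called at neither. Cdkn2a, whose ARF product inhibits Mdm2, was -5.86 on the log2 scale against the reference pool in controls and was not called at any dose, likewise noted after its values were seen.

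Of 28 other p53 targets, 26 were detected at the low dose, 26 at the medium and 27 at the high dose, and 2, 5 and 6 were called. These are 7.69%, 19.2% and 22.2%, beside 5.18%, 8.88% and 11.8% of all detected genes. At the high dose 5 were higher and 1 lower, and the median of the detected genes was 0.10, where that of the 10 genes above was 0.68. Sesn2, which codes for sestrin 2, rose by 1.01, 1.13 and 1.43 (adjusted p = 0.000672, 0.000163 and 4.57e-06), in the direction opposite to its relative Sesn1. Pmaip1, the gene of the BH3-only protein NOXA, rose by 0.60, 0.75 and 1.10 (adjusted p = 0.0316, 0.00479 and 6.33e-05). Plk2, a stress-induced kinase, was 0.91 higher at the low dose (adjusted p = 0.0681) and rose by 1.47 and 1.56 at the medium and high dose (adjusted p = 0.00238 and 0.000701). Missing spots left Plk2 with 4 control, 5 low, 4 medium and 5 high dose arrays, and Pmaip1 with 4 control arrays. Ak1, an adenylate kinase, fell by 0.70 and 0.74 at the medium and high dose (adjusted p = 0.00178 and 0.000552).

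Of 9 detected paralogues of the 10 genes, in a list that leaves out Sesn2, 1 (11.1%) was called at the low dose and 2 (22.2%) at each higher dose, beside 5.18%, 8.88% and 11.8% of all detected genes. Sesn3 fell by 0.96, 1.38 and 1.60 (adjusted p = 0.000712, 1.02e-05 and 5.58e-07), as Sesn1 did. Bok, a relative of Bax, rose by 0.68 and 0.80 at the medium and high dose (adjusted p = 0.000494 and 3.92e-05). Gadd45b and Gadd45g, named after their values were seen, were not called: at the high dose they differed by 0.50 (adjusted p = 0.0696) and 0.38 (adjusted p = 0.0454, under 1.5-fold).

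Among 13 detected genes of the BCL2 family 4 (30.8%, beside 11.8% of all detected genes) were called at the high dose: Bbc3, Pmaip1 and Bok higher, and Bmf lower. Of these, Bbc3, Pmaip1 and Bok are also counted in the lists above. Bmf, a BH3-only gene linked to loss of anchorage, fell by 0.90 at the medium dose and fell by 1.45 at the high dose (adjusted p = 0.00153 and 3.64e-06). In the death receptor pathway 2 of 9 detected genes (22.2%, beside 11.8%) were called at the high dose, Fas and Tnfrsf1a, the gene of a TNF receptor, which fell by 0.75 (adjusted p = 4.33e-05). Fas is also counted among the p53 target genes followed here. Fasl, the ligand of Fas, was detected on 0 of 22 arrays.

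Downstream of p21, 20 genes that p21 is known to silence through the DREAM complex were detected. Of these, limma called 0 at the low dose, 0 at the medium dose and 1 (5%) at the high dose, beside 5.18%, 8.88% and 11.8% of all detected genes. An unadjusted p under 0.05 was found for 5, 4 and 9 of the 20. Over all detected genes it was found for 3743 of 13642, 4390 of 13412 and 5055 of 14027. The one called was Mybl2, a DREAM-regulated factor of the cell cycle, which rose by 0.70 (adjusted p = 0.000223). E2f1, noted after its values were seen, differed by -0.57, -0.51 and -0.47 (adjusted p = 0.00214, 0.00361 and 0.00713), under 1.5-fold at each dose. The median change of the list at the high dose was -0.14. Among G1 cyclins and CDK inhibitors 5 of 13 detected genes (38.5%, beside 11.8%) were called at the high dose, with Cdkn1a higher and 4 lower. Cdkn1a is also counted among the p53 target genes followed here. Cdkn2d, which codes for the CDK4 and CDK6 inhibitor p19, fell by 1.04, 1.18 and 1.52 (adjusted p = 0.00031, 5.66e-05 and 1.19e-06), and Cdkn2c, which codes for its relative p18, by 0.85, 0.90 and 1.19 (adjusted p = 0.0463, 0.0166 and 0.00111). Ccnd3 fell by 0.71 (adjusted p = 4.4e-05) and Ccnd1 by 0.62 (adjusted p = 0.0281) at the high dose; both code for D-type cyclins.

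Targets of ATF4 and CHOP rose in nearly the whole list: 8 of 10 were called at the low dose, 8 at the medium and 9 at the high dose, all higher, beside 2.17%, 4.24% and 5.45% of all detected genes called higher. The list's median change was 1.13, 1.29 and 1.65. Atf3, a stress transcription factor, rose by 2.47, 2.72 and 3.16 (adjusted p = 7.69e-08, 6.66e-09 and 3.17e-10). Ddit3, the gene of CHOP itself, rose by 1.28, 1.56 and 1.90 (adjusted p = 1.45e-06, 8.85e-08 and 2.14e-09). Chac1, which degrades glutathione, reached 2.37 and Trib3, a pseudokinase that binds AKT, 2.09 at the high dose (adjusted p = 4.04e-08 and 2.68e-06). Sesn2 is in this list as well as among the p53 targets. Whether p53, ATF4 or another factor acts on any of the 10 genes was not tested.

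**Figure D4:**
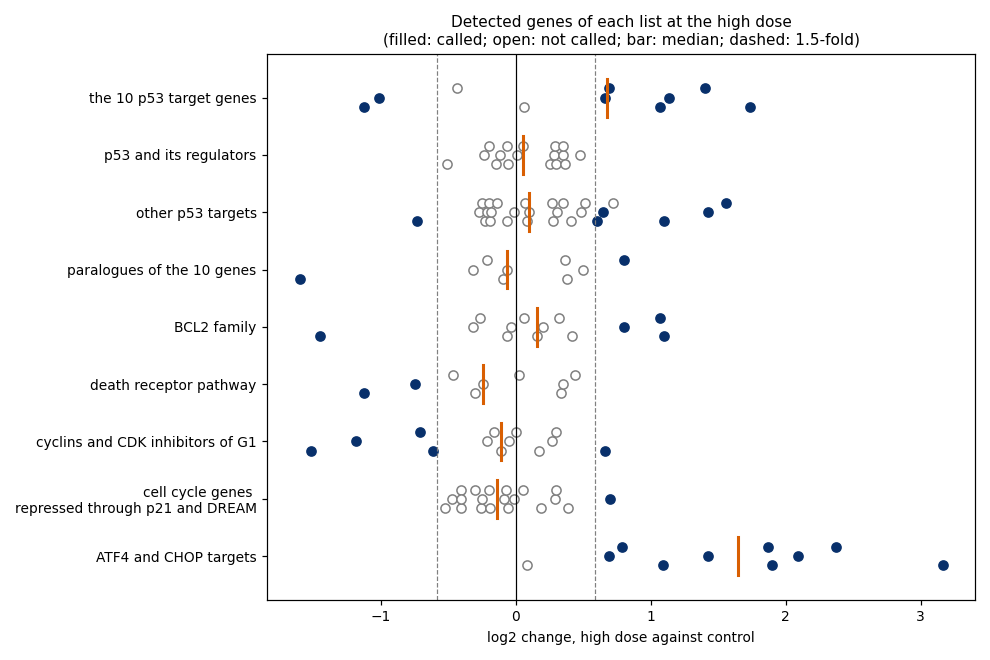
Log2 change at the high dose of each detected gene in the lists, with filled points called, open points not called, a vertical bar at the list's median and dashed lines at 1.5-fold. The median is 0.68 for the 10 p53 target genes, 0.10 for other p53 targets, -0.14 for the DREAM list and 1.65 for ATF4 and CHOP targets.

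Markers of other cell types were read beside these changes. Fibroblast and mesenchymal markers had 4 of 6 called lower at each dose: Col3a1, Pdgfra, Col1a2 and Col1a1, by 1.70, 1.53, 1.52 and 1.34 at the high dose (a fall in each). Of all detected genes 3.01%, 4.65% and 6.4% were called lower from low to high dose. Vim and Thy1, the rest of the list, were not called, and their unadjusted p was not under 0.05 at any dose. The mean log2 level of the 6 markers ran from -0.16 to 0.03 over the control arrays, from -1.05 to -0.26 at the low dose, from -1.07 to -0.80 at the medium dose and from -1.37 to -0.69 at the high dose. The 4 called markers were thus lower at each dose, as Fas and Sesn1 were. The mean of the 6 markers was lower too, with every exposed array below every control array. The median change of the list was -0.80, -1.16 and -1.43 from low to high dose. Whether the markers and Fas or Sesn1 varied together from array to array was not tested, nor was any part of the markers in the result. Of 6 or 7 detected epithelial markers and 4 detected blood and vessel markers, 0 were called at any dose by limma. Of all detected genes 5.18%, 8.88% and 11.8% were called, shares from which lists this short cannot be told apart. At most 2 of either list had an unadjusted p under 0.05 at any dose.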

How the data were processed

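FE1 RNA (Cy5) and reference RNA (Cy3) were hybridised to 22 Agilent arrays, without dye swap, so dye bias of a probe cancels only between groups. The deposited scanner files hold median spot intensity in both channels, extracted by the authors with Feature Extraction 10.7.3.1 per the file headers. They also hold a log10 ratio by the scanner software, and the authors' series matrix holds log2 ratios whose normalization is not stated; both served as alternatives.

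Spots marked as outliers were set to missing, log2(Cy5/Cy3) of the raw medians was loess-normalised for each array, and spots of a probe were combined by their median. A probe was detected when its Cy5 signal was more than 3 trimmed SDs above the 5% trimmed mean of 308 negative control spots. Probes were named by accession through RefSeq names (26413 of 55681 matched). limma 3.58.1 in R 4.3.3 fitted group and slide over all arrays, with Benjamini-Hochberg adjustment across the 55681 probes, in place of the study's own shrinkage statistic. The script was tested on simulated data.

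The genes and lists were chosen with earlier results of these data known. From each other list, the up to 4 genes with the largest change among those called at the high dose are named, and genes called against the list's median. Arrays of the same sample number resembled each other: all 31 same-numbered pairs of different groups correlated above 0.1 in their deviations (lowest 0.197). So did the 4 of them on different slides (lowest 0.245, median 0.423). Of 150 differently numbered pairs, 106 were at or below 0.1. Most same-numbered pairs also shared a slide, and same-slide pairs of different groups had a median of 0.399. Number and slide thus can hardly be told apart here. Alternatives covered background, normalization, filters, thresholds, probes, slide or replicate block, and each array or slide left out.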

Additional observations from a re-analysis of the deposited data

Results flagged for a closer look

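Of 40 groups of 5 or 6 arrays (10 genes in 4 groups), 1 held an array whose gap to the nearest other array, relative to the range of the group, was beyond Dixon's 95% critical value, where chance gives about 1 in 20. It was Gadd45a in medium dose replicate 2, at a log2 level of -1.11, while the other 4 medium dose arrays lay between -0.34 and -0.06. The whole profile of that array was also nearer to the low dose than to the other medium dose arrays. Without that array and low dose replicate 1, the medium dose change of Gadd45a was 1.69 in place of 1.58.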

How the results depend on the processing

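Over 43 alternatives, the number of called genes among the 10 stayed within 1.5 times the reported number in 40 at the low dose, 41 at the medium dose and 43 at the high dose (6 to 9 called). It was 2 at the low dose and 3 at the medium dose with median centring, and likewise 2 and 3 with a threshold of 2-fold, and 2 at the low dose without slide 1. Median centring shifted the median of all genes at the low dose by -0.11. Between the high and the low dose the number was 1, Gadd45a, without low dose replicate 1, and 1 without low dose replicate 1 and medium dose replicate 2 together, an alternative chosen after seeing the data. With 1 array left out it ranged from 6 to 7 at the low dose, was 6 at the medium dose, ranged from 7 to 8 at the high dose, and ranged from 0 to 1 between the high and the low dose. With the sample number as a replicate block in place of slide, 6, 6 and 8 genes were called, and no call changed. Of 1290 values of single genes, 1243 kept their direction and side of the threshold, 35 lost and 3 gained a call, and 9 turned sign, all of Bax, which was not called. Bax at the low dose was -0.015 with the replicate block, -0.099 with median centring, -0.0053 without control replicate 1, -0.016 without low dose replicate 1, -0.018 without low dose replicate 6, -0.10 without slide 1, -0.036 without slide 4 and -0.018 without low dose replicate 1 and medium dose replicate 2 together. At the high dose it was -0.016 without slide 4. With 1 array left out, Bax at the low dose ranged from -0.018 to 0.15. The causes were not tested. Signal over background limits Gdf15 on control replicate 5 and the dimmer Trp53inp1 probe.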
